A study of Homo sapiens with 12 samples.

Results

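Immediate early genes are transcribed within minutes of a stimulus, without new protein synthesis, and neurons use them to turn synaptic activity into lasting change. The 10 genes described here fall into 4 roles. FOS, FOSB, FOSL2, JUN and JUNB encode subunits of AP-1, a dimeric transcription factor; EGR1 and EGR3 encode zinc finger factors; NPAS4 and NR4A1 encode a neuron-enriched bHLH-PAS factor and an orphan nuclear receptor; and ARC encodes a postsynaptic protein that promotes removal of AMPA receptors from the synapse. Calcium entry and growth factor signalling reach these genes mainly through CREB, which binds cAMP response elements, and through SRF with its ETS partners, which bind serum response elements (CArG boxes).

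The genes were taken by symbol from a table of 59653 rows, and all 10 were found. The study compared human neurons made from reprogrammed IMR-90 cells, a fetal lung fibroblast line, after a negative control siRNA (siNC, 6 libraries) or an siRNA against ZCCHC17 (siZCC, 6 libraries). ZCCHC17 encodes a zinc knuckle RNA-binding protein, and the series title links it to neuronal splicing. The labels name no stimulus, and they do not say whether the libraries of a group came from separate cultures: p-values measure the spread between these libraries, which may be technical. The cells are of 1 line, the sample titles carry the letters NPC, and the time between siRNA and lysis is not given in the sources used here.

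Each siNC library held 90755953 to 120023356 counts and each siZCC library 76115083 to 105389055. ZCCHC17 stood at 54.0 to 61.0 CPM (counts scaled by library size with TMM factors) in the siNC libraries and at 9.37 to 10.6 CPM in the siZCC libraries. All 11 neuron markers examined were measured, from RBFOX3 at 0.774 to 1.48 CPM to MAP2 at 900 to 1169 CPM. The neuron marker TUBB3 stood at 13.4 to 15.1 CPM. The 8 progenitor markers ran from HES5 at 5.19 to 8.75 CPM to VIM at 3353 to 3794 CPM. Among them SOX2 stood at 599 to 741 CPM. In siNC the progenitor markers summed to 5635 to 5923 CPM, mostly VIM, and the neuron markers to 2975 to 3408 CPM. The astrocyte marker GFAP stood at 488 to 826 CPM. Of 5 microglial markers, AIF1, CX3CR1 and P2RY12 did not exceed 0.159 CPM in any library, while CSF1R stood at 0.720 to 1.51 CPM and PTPRC at 0.194 to 0.508 CPM. IL1B, a cytokine gene, stood at 0.0223 to 0.100 CPM in 6 libraries and at 5.23 to 16.0 CPM in the other 6, with 3 of each group on either side. The bulk values thus hold markers of several neural cell states, and do not show whether these are in separate cells or in the same cells. Fewer cells of a type and less RNA per cell cannot be told apart.

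Start-site sequences are described first, since these genes share regulators. RefSeq (GRCh38.p14) promoter sequences were matched for 8 of the 10 genes, and the 250 bases before each start were searched on both strands. The full cAMP response element TGACGTCA was in none of the 8 windows and in 1.65% of all 35116 windows. Its core TGACGT, which overlaps the full element, was searched for only after values were seen. This core was in the windows of 5 genes, FOS, FOSB, FOSL2, EGR1 and NPAS4, and in 7.10% of all windows. Windows of 4 of these genes are printed 5′ to 3′ with the core, on either strand, and the CArG boxes in capitals. They set 2 genes whose counts did not pass the test below (FOS, EGR1) beside 2 that fell (FOSB, NPAS4).
FOS, chr14:75278578-75278827, plus strand: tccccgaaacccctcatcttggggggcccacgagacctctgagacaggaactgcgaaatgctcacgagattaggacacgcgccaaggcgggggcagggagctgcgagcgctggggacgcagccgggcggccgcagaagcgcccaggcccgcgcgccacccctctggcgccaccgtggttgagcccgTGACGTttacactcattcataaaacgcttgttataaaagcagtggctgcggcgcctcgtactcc
FOSB, chr19:45467746-45467995, plus strand: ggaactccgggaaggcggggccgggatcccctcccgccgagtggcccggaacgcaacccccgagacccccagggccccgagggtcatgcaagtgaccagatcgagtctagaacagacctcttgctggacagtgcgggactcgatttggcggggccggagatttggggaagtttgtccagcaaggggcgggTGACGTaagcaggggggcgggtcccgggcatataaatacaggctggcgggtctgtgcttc
EGR1, chr5:138465229-138465478, plus strand: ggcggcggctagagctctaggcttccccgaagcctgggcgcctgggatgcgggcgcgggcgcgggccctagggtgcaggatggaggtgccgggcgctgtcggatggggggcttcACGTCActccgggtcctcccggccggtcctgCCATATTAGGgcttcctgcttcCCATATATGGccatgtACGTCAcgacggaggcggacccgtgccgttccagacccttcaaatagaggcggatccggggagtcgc
NPAS4, chr11:66420754-66421003, plus strand: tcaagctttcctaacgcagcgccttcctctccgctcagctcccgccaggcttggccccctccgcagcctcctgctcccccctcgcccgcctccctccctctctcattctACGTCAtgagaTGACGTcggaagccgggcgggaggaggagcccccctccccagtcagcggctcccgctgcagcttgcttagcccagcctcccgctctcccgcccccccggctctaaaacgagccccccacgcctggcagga

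The core began 64 bases before the start in FOS and 60 bases before it in FOSB, and both genes had a TATAAA box, at 33 and 30 bases. EGR1 had cores at 136 and 67 bases, with CArG boxes at 105 and 83 bases between them. It was the only one of the 8 genes with a CArG box in the window, which 1.16% of all windows held. NPAS4 had a pair of cores, at 141 and 130 bases; RefSeq lists another start for it, and the window of that start held the same pair at 172 and 161 bases. The core thus stood in the windows of genes that fell and of genes that did not pass the test. Of the matched genes that fell, FOSL2, FOSB and NPAS4 had it and JUNB did not. The genes that rose, JUN and NR4A1, did not have it in the windows searched. For NR4A1 these were chr12:52022582-52022831 and chr12:52037465-52037714. The gene runs on to 52059507, and any start further along it was not searched. A relation to direction was not tested. TGANTCA, the AP-1 element, was in 0 of the 8 windows and in 6.57% of all, and GCGNGGGCG, bound by EGR proteins, was in the window of EGR1 and in 8.41% of all. A match is a description of these letters and not evidence of binding.

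In the siNC libraries the 10 genes covered a wide span of levels. Divided by the summed exon length in GENCODE v29, JUN was highest at 59.6 ± 1.20 CPM per kilobase (SD, n = 6), followed by EGR1 at 23.0 ± 1.38 and JUNB at 13.0 ± 0.607. FOSL2 (9.84 ± 1.63) and FOS (9.79 ± 0.278) came next and overlapped in range, as did ARC (4.26 ± 0.289) and NR4A1 (3.72 ± 0.121). EGR3 (1.11 ± 0.0605), NPAS4 (0.660 ± 0.0718) and FOSB (0.242 ± 0.0113) were lowest, all in CPM per kilobase, and each other pair of neighbours in this order did not overlap. The length covers the exons of all annotated transcripts of a gene, 7295 bases in NR4A1 and 1820 in JUNB. The order depends on it, and the transcripts in use were not measured. The lowest gene, FOSB, still rested on 69 to 167 counts per library and NPAS4 on 115 to 297 counts.

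The main comparison asked whether these genes differ after the ZCCHC17 siRNA. All 10 passed the filter on low counts. At an adjusted p under 0.05, 5 fell (FOSL2, NPAS4, FOSB, EGR3 and JUNB), 2 rose (NR4A1 and JUN) and 3 did not pass the test (FOS, EGR1 and ARC). That is 7 of 10 genes, where 22.2% of all 24671 genes tested were called, 11.4% higher and 10.8% lower. In a fit of the 18464 genes with a mean count of at least 50, a larger share was called, 5573. That fit called 7 of the 10 genes. The 22.2%, also used for the lists below, thus includes many genes of lower counts. The median log2 fold change of the 10 genes was -0.13, against -0.0016 over all genes tested. Every change was under 1.5-fold: the most reduced gene, FOSL2, kept 71.0% of its control level, and NR4A1 reached 117%. Adjusted p-values are Benjamini-Hochberg values over all genes tested, from the quasi-likelihood test of edgeR. The permutation tests of single genes are exact, two-sided and not adjusted.

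**Figure D1:**
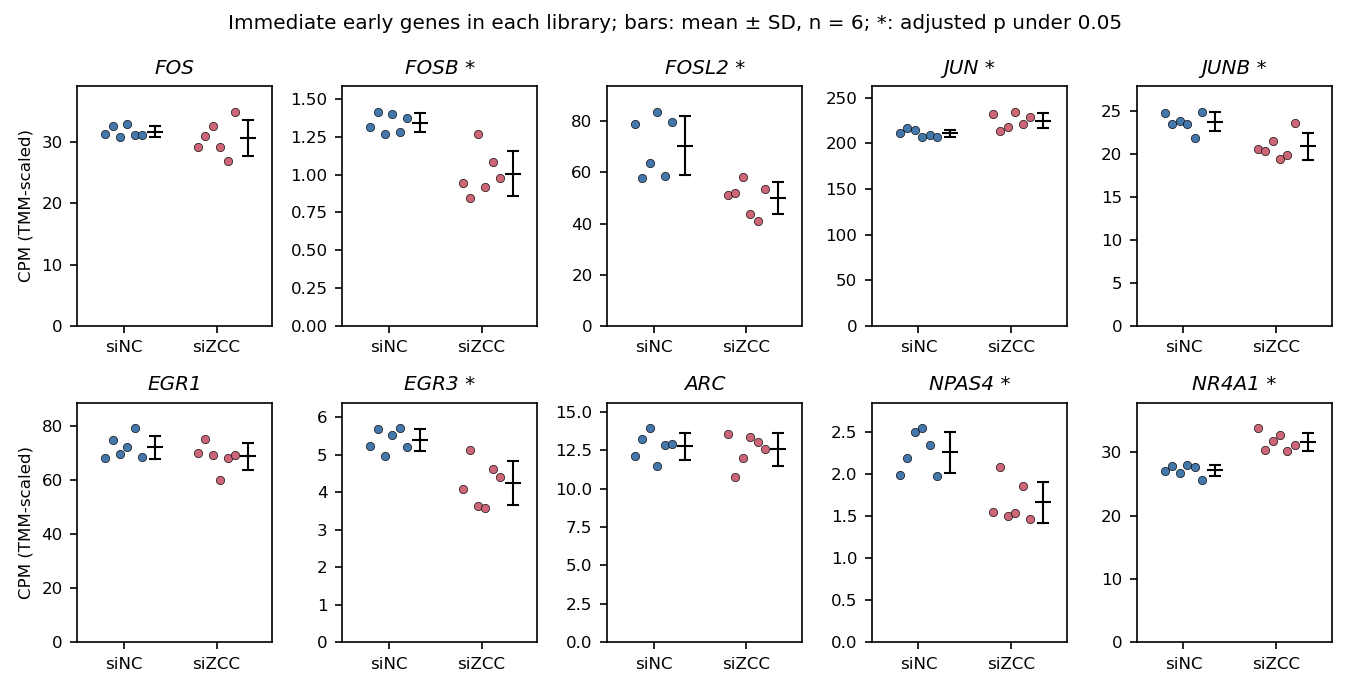
TMM-scaled CPM of each gene (vertical axis from 0) in the 6 siNC and 6 siZCC libraries; points are libraries, bars are mean ± SD (n = 6), and an asterisk marks an adjusted p under 0.05. The siZCC points of FOSL2, FOSB, EGR3 and NPAS4 lie mostly below the siNC points, those of NR4A1 all above, and those of EGR1 and ARC mostly among them. Those of FOS spread to both sides of the siNC points, 3 below and 1 above.

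FOS proteins pair with JUN proteins and do not form stable AP-1 dimers alone. FOS itself (chr14:75278774-75282230 in GENCODE v29, GRCh38, as for the positions that follow) stood at 30.8 to 33.0 CPM in siNC, with a median of 31.3, and at 26.8 to 34.96 CPM in siZCC, with a median of 30.1. The siZCC values fell on both sides of the siNC range, with 3 below and 1 above it. The log2 fold change of FOS was -0.047 (SE 0.0498, adjusted p 0.552), with an approximate 95% interval of -0.14 to 0.05.

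FOSB, whose truncated splice product ΔFosB accumulates with repeated activity, lies at chr19:45467995-45475179. It stood at 1.27 to 1.42 CPM in siNC, with a median of 1.35, and at 0.846 to 1.27 CPM in siZCC, with a median of 0.960. All siZCC libraries but replicate 3, which lay within the siNC range, were below every siNC library. The fall was -0.42 on the log2 scale (SE 0.0961, adjusted p 0.00500; exact permutation p 0.00433). Counts per gene do not separate ΔFosB from full-length FosB.

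FOSL2 (chr2:28392448-28417312) encodes Fra-2, an AP-1 subunit. It was the most variable of the 10 in siNC, at 57.8 to 83.7 CPM with a median of 71.4 and a coefficient of variation of 16.5%, and stood at 41.1 to 58.1 CPM in siZCC, with a median of 51.7. In siNC, 3 libraries (replicates 1, 4 and 6) lay between 78.9 and 83.7 CPM and the other 3 between 57.8 and 63.8 CPM. Only the lowest siNC and the highest siZCC library overlapped. The fall was -0.49 (SE 0.0977, adjusted p 0.00168; exact permutation p 0.00433).

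JUN and JUNB went in opposite directions. JUN (chr1:58780788-58784327), a strongly transactivating partner of FOS proteins, stood at 207 to 217 CPM in siNC (median 210) and at 214 to 235 CPM in siZCC (median 225), with 5 siZCC libraries above every siNC library. Its rise was small, 0.09 on the log2 scale (SE 0.0285, adjusted p 0.0266; exact permutation p 0.00649). The call was lost with the replicate number as a block (adjusted p 0.0712), with no filter on low counts (0.0853) and on leaving out any 1 of siNC replicates 4 and 6 and siZCC replicates 1, 4 and 6 (0.0565 to 0.0719).

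JUNB (chr19:12791496-12793315), a weaker activator that restrains JUN on some promoters, stood at 21.9 to 24.9 CPM in siNC (median 23.7) and at 19.4 to 23.6 CPM in siZCC (median 20.5). All siZCC libraries but replicate 6 lay below every siNC library. The fall was -0.18 (SE 0.0464, adjusted p 0.00900; exact permutation p 0.00866). In GENCODE v29, exons of JUNB overlap exons of HOOK2 on the opposite strand, and the libraries came from a directional kit whose counting setting is not given in the sources used here; HOOK2 itself had a log2 fold change of -0.02 (adjusted p 0.813). Exons of EGR3 and NR4A1 also overlap those of a non-coding gene on the opposite strand, and the one beside EGR3, AC055854.1, averaged 0.00280 CPM in siNC. The one beside NR4A1, AC025259.3, was not among the counted symbols, so its level is not known.

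**Figure D2:**
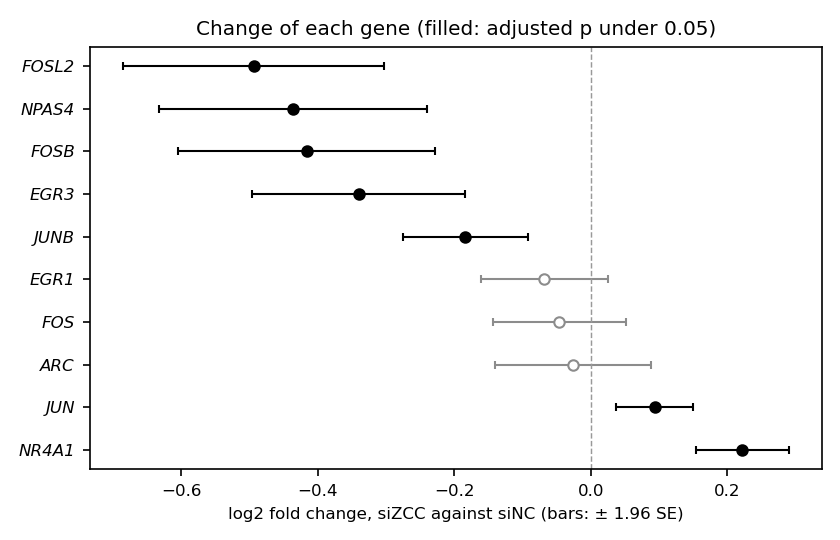
Log2 fold change of each gene in siZCC against siNC (horizontal axis); bars are approximate 95% intervals, and filled points have an adjusted p under 0.05. FOSL2, NPAS4, FOSB and EGR3 lie between -0.49 and -0.34, while JUN and NR4A1 lie at 0.09 and 0.22.

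EGR1 (chr5:138465490-138469315), widely used as a marker of neuronal activation, stood at 68.2 to 79.2 CPM in siNC (median 70.9) and at 60.1 to 75.2 CPM in siZCC (median 69.3), and only siZCC replicate 4 was below the siNC range. Its log2 fold change was -0.07 (SE 0.0475, adjusted p 0.334), with an approximate interval of -0.16 to 0.02. EGR3 (chr8:22687659-22693302), another member of the family, stood at 4.97 to 5.71 CPM in siNC (median 5.38) and at 3.59 to 5.12 CPM in siZCC (median 4.25). All siZCC libraries but replicate 2 were below every siNC library. The fall was -0.34 (SE 0.0799, adjusted p 0.00563; exact permutation p 0.00433).

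NPAS4 (chr11:66421004-66426707), which is induced by depolarisation and calcium entry, stood at 1.99 to 2.55 CPM in siNC (median 2.27) and at 1.47 to 2.08 CPM in siZCC (median 1.54), a fall of -0.44 (SE 0.100, adjusted p 0.00484; exact permutation p 0.00649). All siZCC libraries but replicate 2 lay below every siNC library. Cell type markers also moved between the groups, beside a background of 22.2% of all genes called. Of 11 neuron markers, 1 rose (SYT1) and 4 fell (STMN2, DCX, ELAVL4 and NEFM), and their summed level was 2975 to 3408 CPM in siNC and 2744 to 3141 CPM in siZCC. Of 8 neural progenitor markers, 3 rose (SOX2, PAX6 and HES5) and 2 fell, the proliferation genes MKI67 (log2 fold change -0.52, adjusted p 1.90e-05) and TOP2A (-0.24, adjusted p 0.00143). Their summed level was 5635 to 5923 CPM in siNC and 5600.0 to 6079 CPM in siZCC. Of 6 astrocyte markers, 2 rose, SLC1A3 (0.30, adjusted p 7.46e-04) and ALDH1L1 (0.42, adjusted p 0.0198), and AQP4 fell (-0.21, adjusted p 0.0150), with a summed level of 1167 to 1328 CPM in siNC and 1237 to 1496 CPM in siZCC. The part of these markers in the values of NPAS4 and the other 9 genes was not tested.

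ARC (chr8:142611044-142614472) stood at 11.4 to 13.9 CPM in siNC (median 12.9) and at 10.7 to 13.6 CPM in siZCC (median 12.8), and the groups overlapped almost fully. Its log2 fold change was -0.03 (SE 0.0585, adjusted p 0.797), with an approximate interval of -0.14 to 0.09. NR4A1 (chr12:52022832-52059507), also called Nur77, was the single gene of the 10 whose groups did not overlap, as in 9.74% of all genes tested (5.25% with siZCC higher). It stood at 25.6 to 28.0 CPM in siNC (median 27.3) and at 30.2 to 33.8 CPM in siZCC (median 31.4). The rise was 0.22 (SE 0.0348, adjusted p 2.68e-04; exact permutation p 0.00216, the smallest that 6 against 6 can give).

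Relatives of 1 family were then compared directly, by the log2 ratio of their CPM within each library. The comparison was made after the single values were seen and took all 5 pairs within the FOS, JUN and EGR families, with exact permutation tests (two-sided) adjusted over the 5. FOSB against FOS moved from -4.54 ± 0.0396 to -4.91 ± 0.231 (SD, n = 6 each), and all 6 siZCC ratios were below every siNC ratio (exact permutation p 0.00216, adjusted 0.00361). JUNB against JUN moved from -3.15 ± 0.0736 to -3.43 ± 0.116, again with no overlap and the same p. EGR3 against EGR1 moved from -3.74 ± 0.0466 to -4.02 ± 0.141, likewise with no overlap and the same p. FOSL2 against FOS moved from 1.13 ± 0.239 to 0.70 ± 0.109, with 5 siZCC libraries below every siNC library (exact permutation p 0.00433, adjusted 0.00541). FOSL2 against FOSB, the pair in which both genes fell, differed by -0.07 (exact permutation p 0.619, adjusted 0.619). The relatives of these 4 shifted pairs thus differed in their change, while no difference was shown for FOSL2 and FOSB.

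**Figure D3:**
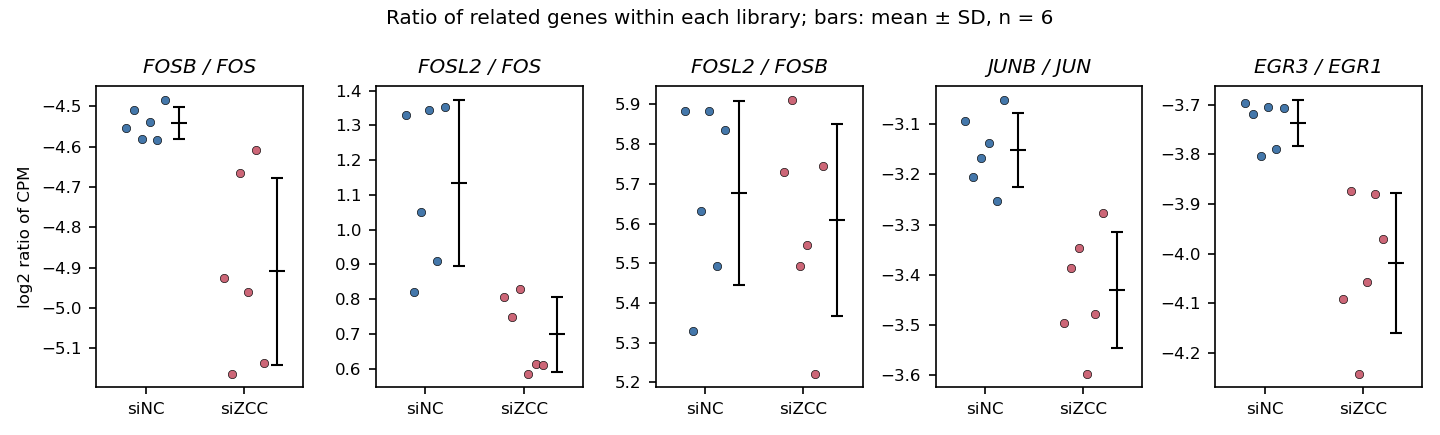
Log2 ratio of CPM of related genes within each library (vertical axis, scaled to each pair and not starting at 0) for the 6 siNC and 6 siZCC libraries; points are libraries and bars are mean ± SD (n = 6). The siZCC ratios of FOSB to FOS, JUNB to JUN and EGR3 to EGR1 are all below the siNC ratios, and those of FOSL2 to FOSB overlap.

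FOS was tight in siNC, with a coefficient of variation of 2.84%, and wider in siZCC, at 9.35%; FOSB had 4.68% and 14.9%, and EGR3 5.45% and 13.9%. The coefficient was higher in siZCC in 9 of the 10 genes, by less in others such as ARC (6.79% and 8.33%) and EGR1 (6.00% and 7.13%), and lower in FOSL2 (16.5% and 12.6%). These differences in spread were not tested, and the share of all genes with a higher coefficient in siZCC was not computed. Library totals also ran lower in siZCC, at 76115083 to 105389055 counts against 90755953 to 120023356 in siNC. FOSB rested on 69 to 167 counts per library, few enough that counting noise forms part of its spread. After removal of the group means, over the 12 libraries, none of the other 9 genes passed an adjusted p of 0.05 with FOS (permutation within groups, adjusted over the 9). By Pearson's r the smallest permutation p was that of JUNB, with r of 0.67 (permutation p 0.0413, adjusted 0.266) and Spearman's rho of 0.51 (permutation p 0.120, adjusted 0.361); without siZCC replicates 5 and 6, the libraries farthest from the median of FOS, r was 0.31. By Spearman's rho the smallest permutation p was that of ARC, in the negative direction (rho -0.71, permutation p 0.0210, adjusted 0.189; r -0.40, permutation p 0.292, adjusted 0.877; r without those libraries -0.63). FOSL2 had r of 0.51 (permutation p 0.0591, adjusted 0.266) and rho of 0.56 (permutation p 0.0532, adjusted 0.239), and r of 0.39 without those libraries. Over all 45 pairs of the 10 genes, 16 had a positive r, the median r was -0.08, and 0 passed the adjusted threshold, with 4 at an unadjusted permutation p under 0.05.

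The smallest permutation p among the 45 pairs belonged to JUN with ARC (r 0.78, permutation p 0.00464, adjusted over the 45 0.209; rho 0.70, permutation p 0.0231, adjusted 0.334). EGR1 with EGR3 followed (r 0.73, permutation p 0.00949, adjusted 0.214; rho 0.64, permutation p 0.0248, adjusted 0.334). Without the 2 libraries farthest from the median of JUN and of EGR1, r was 0.61 and 0.63. The values share a library and its scaling, and 12 libraries leave wide error. The genes whose deviations were most like those of FOS, by r over the 12 libraries, were GALNT17 (0.92), HIBADH (0.91), RETSAT (0.91), MAN1C1 (0.89) and ITPKB (0.88); over all 12624 genes averaging 5 CPM or more the median r was 0.0228 and the 95th percentile 0.586.

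**Figure D4:**
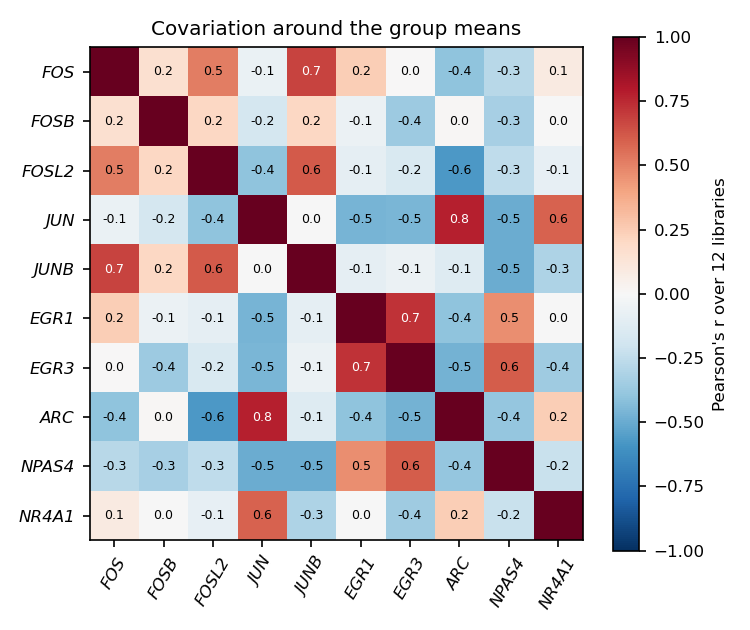
Pearson's r between each pair of the 10 genes over the 12 libraries after the group means of log2 CPM were removed; red is positive and blue negative. JUN with ARC (0.78) and EGR1 with EGR3 (0.73) are the highest, and most pairs are near or below 0.

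Other genes of the response were read in 5 lists by role. Among AP-1 and related bZIP partners, 14 of 16 were tested, 2 rose and 1 fell, or 21.4%, near the 22.2% of all genes. JDP2, an AP-1 repressor, rose from 8.93 ± 0.348 to 11.6 ± 0.656 CPM (SD, n = 6 each; log2 fold change 0.38, SE 0.0464, adjusted p 2.66e-05). JUND, a constitutive JUN protein that slows proliferation, rose from 155 ± 6.45 to 182 ± 16.6 CPM (SD, n = 6 each; log2 fold change 0.24, adjusted p 0.00276). MAFF fell by 0.19 on the log2 scale (SE 0.0540, adjusted p 0.0170). FOSL1, which encodes Fra-1, had a log2 fold change of -0.01 (adjusted p 0.948).

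Of the EGR, NR4A and SRF-linked relatives, 28 of 29 were tested, 5 rose and 7 fell, or 42.9% against 22.2% of all genes, with a median log2 fold change of -0.06. TRIB1, a pseudokinase, rose by 0.32 (SE 0.0434, adjusted p 6.61e-05) and NAB2, a corepressor of EGR proteins, by 0.17 (SE 0.0327, adjusted p 0.00160). KLF6 fell by 0.25 (SE 0.0409, adjusted p 3.46e-04) and KLF10 by 0.22 (SE 0.0404, adjusted p 0.00105) on the log2 scale. The close relative EGR2 fell by 0.37 (adjusted p 0.00403), while NR4A2 and NR4A3 had log2 fold changes of -0.08 (adjusted p 0.574) and -0.12 (adjusted p 0.142). SRF itself fell by 0.17 on the log2 scale (adjusted p 0.00147).

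Of 20 feedback inhibitors, 2 rose and 8 fell, so that 10 of 20 were called against 22.2% of all genes, with a median log2 fold change of -0.09. ZFP36L1, an mRNA decay factor, rose from 261 ± 25.9 to 358 ± 10.7 CPM (SD, n = 6 each; log2 fold change 0.45, SE 0.0513, adjusted p 1.40e-05). SPRED1, an inhibitor of RAS signalling, rose by 0.17 (SE 0.0536, adjusted p 0.0289). DUSP4, a nuclear phosphatase of MAP kinases, fell from 110 ± 4.67 to 90.3 ± 6.72 CPM (log2 fold change -0.28, SE 0.0442, adjusted p 2.52e-04). RGS4, a GTPase activator for G proteins, fell by 0.38 on the log2 scale (SE 0.0637, adjusted p 5.18e-04). The ERK phosphatase DUSP6 fell by 0.27 (adjusted p 0.00106), and DUSP1 had a log2 fold change of -0.05 (adjusted p 0.436).

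Late effectors of activity had 3 higher and 5 lower of 25 tested, or 32.0% against 22.2% of all genes, with a median of -0.04 on the log2 scale. The 32.0% lies near the share among genes with a mean count of at least 50, 5573 of 18464. BDNF, a neurotrophin with activity-dependent promoters, fell from 12.1 ± 0.949 to 8.35 ± 0.953 CPM with no overlap (SD, n = 6 each; log2 fold change -0.53, SE 0.0711, adjusted p 6.29e-05). LMO4 fell by 0.28 (SE 0.0368, adjusted p 4.73e-05), KCNJ2, an inward rectifier potassium channel, rose by 0.49 (SE 0.0727, adjusted p 1.61e-04), and NPTX1 rose by 0.23 (SE 0.0713, adjusted p 0.0286). HOMER1 and NPTX2, both activity-regulated synaptic genes, had log2 fold changes of -0.03 (adjusted p 0.680) and 0.03 (adjusted p 0.612). The count of 8 was 5 without siNC replicate 6 or without siZCC replicate 1.

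The kinases, cofactors and transcription factors that relay signals to these genes had 2 higher and 4 lower of 40 tested, or 15.0% against 22.2% of all genes, and a median of -0.02. MAP2K1 (0.14, SE 0.0264, adjusted p 0.00112) and ELK4 (0.20, SE 0.0682, adjusted p 0.0457) rose, and CAMKK2 (-0.13, SE 0.0271, adjusted p 0.00289) and MAPK8 (-0.16, SE 0.0424, adjusted p 0.0105), which encodes JNK1, fell. CREBBP (-0.14, SE 0.0363, adjusted p 0.0123) and ELK3 (-0.25, SE 0.0827, adjusted p 0.0363) also fell. CREB1 had a log2 fold change of -0.02 (adjusted p 0.811).

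**Figure D5:**
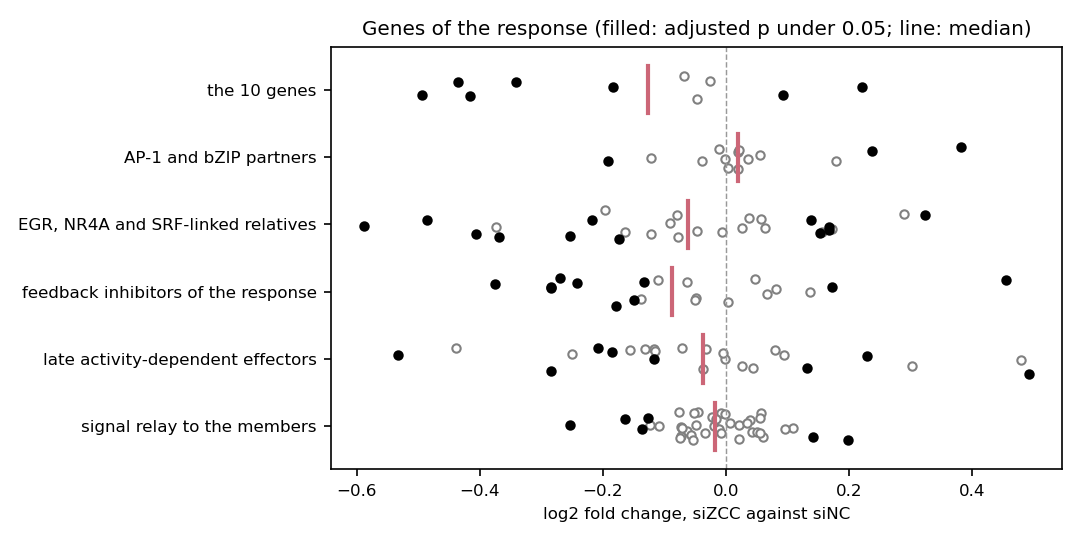
Log2 fold change of each tested gene (horizontal axis) in the 10 genes and in the 5 lists; filled points have an adjusted p under 0.05, and red lines are list medians. The medians lie between -0.13 for the 10 genes and 0.02 for the bZIP partners, with called genes on both sides of 0 in every row.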

How the data were processed

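RNA-seq was measured in 12 libraries of human iPSC-derived neurons, grouped by sample title. The authors deposited whole-number counts per gene symbol; the submitters' processing notes name bcl2fastq 2.17, STAR 2.7.6a, featureCounts 2.0.1 and GRCh38, with annotation and settings not given in the sources used here.

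Counts were analysed in R 4.3.3 with edgeR 4.0.16 (filterByExpr, TMM, quasi-likelihood test, 24671 genes kept, common biological coefficient of variation 6.55%). CPM carry the TMM factors; a prior count of 2 was added before taking log2. SE is the log2 fold change over the square root of F. Permutation tests over libraries enumerate 924 assignments (Python 3.11.15, scipy 1.17.1); correlations use 100000 permutations within groups. Alternatives used DESeq2 1.42.0 and limma 3.58.1. The test was tested on simulated data with known changes. Positions and lengths are from GENCODE v29 (GRCh38).

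The genes, lists and tests were chosen with earlier results of these data known. Named were the 10 genes, ZCCHC17, for every list the 2 called genes of smallest p per direction, and the 5 genes most like FOS. Cell type markers, IL1B, HOOK2, FOSL1, EGR2, NR4A2, NR4A3, SRF, DUSP6, DUSP1, HOMER1, NPTX2, CREB1, CREBBP, ELK3 and genes named in the closing section were added after values were seen. Splicing and isoforms were not analysed. The family ratios, the IL1B interaction, the search for the TGACGT core, thinning and a GC and length correction were added after values were seen.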

Additional observations from a re-analysis of the deposited data

Results flagged for a closer look

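In 24 groups of 6 values (library totals, the 10 genes and ZCCHC17 in siNC and in siZCC), 1 group had a value far from its neighbours, where chance gives about 1 group in 20. The library concerned was siNC replicate 4, with 90755953 counts. The remaining siNC totals lay between 109973707 and 120023356 counts, so that its distance to the nearest was 0.657 of the whole range. None of the 10 genes had a library that far from its group. Without this library 6 of the 10 genes were called, JUN being lost.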

How the results depend on the processing

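The calls of FOSL2 and NR4A1 held in every alternative run, and no called gene changed sign in any. The 10 genes gave 6 or 7 calls in all alternatives over 11 or 12 libraries. The libraries split in IL1B counts, from 2 to 12 in 6 libraries and from 449 to 1512 in the other 6, with 3 of each group on either side. Fits of 6 libraries called 3 of the 10 genes with high IL1B and 2 with low IL1B, and 2043 and 1602 of all genes, fewer samples being part of their construction.
In the high and low libraries the log2 fold change was -0.46 and -0.38 for FOSB, -0.37 and -0.32 for EGR3, -0.44 and -0.44 for NPAS4, and 0.107 and 0.0760 for JUN, none of them called; JUNB was not called at -0.10 with low IL1B. FOS was -0.152 with high and 0.0458 with low IL1B, a difference with an unadjusted p of 0.0181 and an adjusted p of 0.935 (edgeR). List counts with high and low IL1B were 6 and 5 for the EGR, NR4A and SRF-linked list, 5 and 3 for late effectors and 0 and 3 for signal relay, with 6 feedback inhibitors in the high and 1 bZIP partner in the low libraries.
JUN was not called with no filter (0.0873, adjusted p 0.0853) or with the replicate block (0.0925, adjusted p 0.0712; edgeR). Leaving out single libraries gave JUN 0.0803 to 0.108, ARC -0.0550 to 0.0154 (0.000457 without siNC replicate 3 and 0.0154 without siZCC replicate 2) and 5 to 10 late effectors. Without siZCC replicates 5 and 6 the correlation with FOS was 0.16 for NPAS4 and -0.11 for NR4A1. Leaving them out moved r from 0.16 to 0.70 for FOSB and from -0.06 to -0.58 for JUN. Libraries with the same number did not deviate together (correlations -0.077 to 0.0179); the block called 4902 genes against 5481 and changed no call of the 10 genes but that of JUN. The correction for GC content and transcript length, added after seeing the data, gave 3575 higher and 2966 lower genes, and upper quartile scaling 2511 and 2905, against 2818 and 2663. Thinning to the smallest total, also added, left 7 of the 10 genes called.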

Other observations

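FOSL2 differed among the siNC libraries more than the other 9 genes, and the genes that followed it were read after its values were seen. Over the 12 libraries with group means removed, the highest r (genes averaging 5 CPM or more) belonged to ZNF154 (0.97), CCN1 (0.97), PDE8A (0.96), COL11A1 (0.96) and ANKRD33B (0.96), given as a description with no test. They head a ranking of many genes, and the distribution of r with FOSL2 over all genes was not computed. CCN1, a secreted matricellular protein, fell with no overlap, from a mean of 72.5 CPM to 51.7 CPM (log2 fold change -0.49, SE 0.0958, adjusted p 0.00166 in edgeR's test). COL11A1, a fibrillar collagen gene, fell by 0.39 on the log2 scale (adjusted p 0.00807). ZNF154 and ANKRD33B had log2 fold changes of -0.28 (adjusted p 0.0171) and -0.24 (adjusted p 0.115). PDE8A alone among them rose, by 0.15 (adjusted p 0.00975), so following FOSL2 within groups did not always mean moving the same way between them. CCN2, which is not among these followers, fell by 0.59 on the log2 scale (adjusted p 0.00305). Of 5 fibroblast markers 0 rose and 3 fell (DCN, LUM and PDGFRA), where 22.2% of all genes were called and 10.8% were lower, and their summed level was 89.0 to 318 CPM in siNC and 47.0 to 161 CPM in siZCC, mostly COL1A1. COL1A2, another defining fibroblast gene, did not exceed 1.09 CPM in any library. The part of these markers in the value of FOSL2 was not tested.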
